A study of Homo sapiens with 8 samples.

Results

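The WNT and crypt progenitor genes were examined as hosts of small open reading frames (smORFs), short reading frames outside annotated proteins, in ribosome profiling (Ribo-Seq) libraries of Caco-2 cells. The 8 genes sought were MYC, AXIN2, LGR5, ASCL2, EPHB2, CD44, SOX9 and CCND1, and a smORF was taken as a member when the smORF annotation named one of them as its host. Of 24199 smORFs in 7526 host genes, 11 met this rule, namely 6 in AXIN2, 4 in ASCL2 and 1 in LGR5. Per the paper, this catalogue pools smORFs called in 4 cell types, of which the line studied here is 1. A listed member was therefore not necessarily called as translated in this line. MYC, EPHB2, CD44, SOX9 and CCND1 had no smORF listed and are therefore not measured here. Of the 11 members, 3 passed the low-count filter, all of them in ASCL2.

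Caco-2 is a human colorectal adenocarcinoma line that forms an enterocyte-like layer when it is allowed to differentiate after reaching confluence. The 8 libraries fell into 4 groups of 2: undifferentiated cells, differentiated control cells left untreated, differentiated cells given micelles without lipid, made of the bile salt taurocholate, and differentiated cells given lipid micelles that carried bovine serum albumin, oleic acid and cholesterol. All libraries came from this 1 line with no genetic change named, and lysis was carried out in the presence of cycloheximide, which holds ribosomes on their RNA. The replicates are numbered in the labels without a statement that they came from separate cultures, so the p-values measure the spread between these libraries, which may be technical.

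In the intestinal crypt, WNT ligands bind Frizzled and LRP receptors, the complex that destroys beta-catenin is held back, and beta-catenin joins TCF factors to switch on genes that keep stem and progenitor cells dividing. ASCL2 is a basic helix-loop-helix transcription factor of crypt stem cells and itself a WNT target. LGR5, a receptor for R-spondins, marks stem cells at the crypt base, and AXIN2 is a scaffold of the destruction complex that WNT signalling induces and that damps the same signal. Cells leaving the crypt normally lose this programme as they become absorptive enterocytes. A smORF upstream of the main coding sequence (uORF) can lower or shape translation of the main protein, whereas one downstream of it (dORF) lies in the 3' untranslated region (UTR).

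The first bases of the member smORFs are shown because the starts differ in codon and in place within the gene, and some are shared by 2 smORFs. The sequences are from hg38, 5' to 3' on the coding strand, with the first codon of the smORF in capitals and, where the annotated exon extended further, the bases before it.
ASCL2 IEC_15428, dORF, chr11:2268798-2268971, minus strand: tgaccaATGccgcggtggaaacgggct
ASCL2 IEC_15429, dORF, chr11:2268829-2268933, minus strand: ccataaGGGctggcggcttcctccgac
ASCL2 IEC_15430, dORF, chr11:2268937-2269737, minus strand: cgacctATGagcctcagccccggaagc
ASCL2 IEC_15431, uORF, chr11:2270481-2270588, minus strand: GGAgacctgggagagtccggccgcacg
LGR5 IEC_01095, uORF, chr12:71439800-71440021, plus strand: TCCacaccgctcaggccgcgagcagca
AXIN2 IEC_22279, uORF, chr17:65560827-65560955, minus strand: ctccccATGttccccgacgccgcggcc
AXIN2 IEC_22370, uORF, chr17:65558712-65559988, minus strand: gaggacATGagagcctggcttcggcgg
An ATG opened 7 of the 11 members, beside 43.4% of all smORFs. IEC_15429 opened with GGG directly after a stop codon, TAA, so its frame was drawn from stop to stop. AXIN2 IEC_23949 began with the same 27 bases as IEC_22279, and AXIN2 IEC_23948 with the same 27 bases as IEC_22370.

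ASCL2 carried its smORFs at both ends of a short gene with 1 annotated transcript. IEC_15431, of 36 amino acids, began at the first annotated base of the gene and ended 148 nt before the coding sequence. The other 3 lay in the 3' UTR. IEC_15430, of 65 amino acids in 2 exons, began 16 nt after the coding sequence, IEC_15428, of 58 amino acids, began 176 nt after it, and IEC_15429, of 35 amino acids, began 214 nt after it. These distances run from the last codon before the stop codon, so they include the stop codon. All 105 nt of IEC_15429 lay inside IEC_15428, and IEC_15430 shared 35 nt with IEC_15428, so these 3 dORFs are not independent measurements. No annotated gene lay opposite them. The smORF annotation marked a repeat element for IEC_15430, but not for IEC_15428, IEC_15429 or IEC_15431. How reads that map to several places were counted is not stated, which limits the counts of IEC_15430.

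The LGR5 uORF, of 74 amino acids, began 2 nt into the gene and ended 59 nt before the LGR5 coding sequence. It lies opposite the gene TSPAN8 on the other strand, and whether the counting used strand is not stated, so reads of the 2 genes cannot be told apart. The 6 AXIN2 uORFs, of 10 to 44 amino acids, formed 2 overlap clusters. IEC_22279 and IEC_23949 shared 129 nt, and IEC_22370 shared 35 nt with IEC_23948 and 25 nt with each of IEC_23946 and IEC_23947, of which IEC_23946 is placed with less certainty because its annotated exons do not give its deposited sequence. In exons of the main AXIN2 transcript lay 0 nt of IEC_22279, IEC_23949 and IEC_23948, and 25 of the 60 nt of IEC_22370. Their place as uORFs thus rests on other transcripts. Of IEC_23947, 25 of 42 nt lay in any annotated AXIN2 exon. All 6 AXIN2 uORFs also lie within a second annotated gene of the same strand, ENSG00000266076, which limits the assignment to AXIN2. A repeat element was marked for each of them except IEC_23948.

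**Figure D1:**
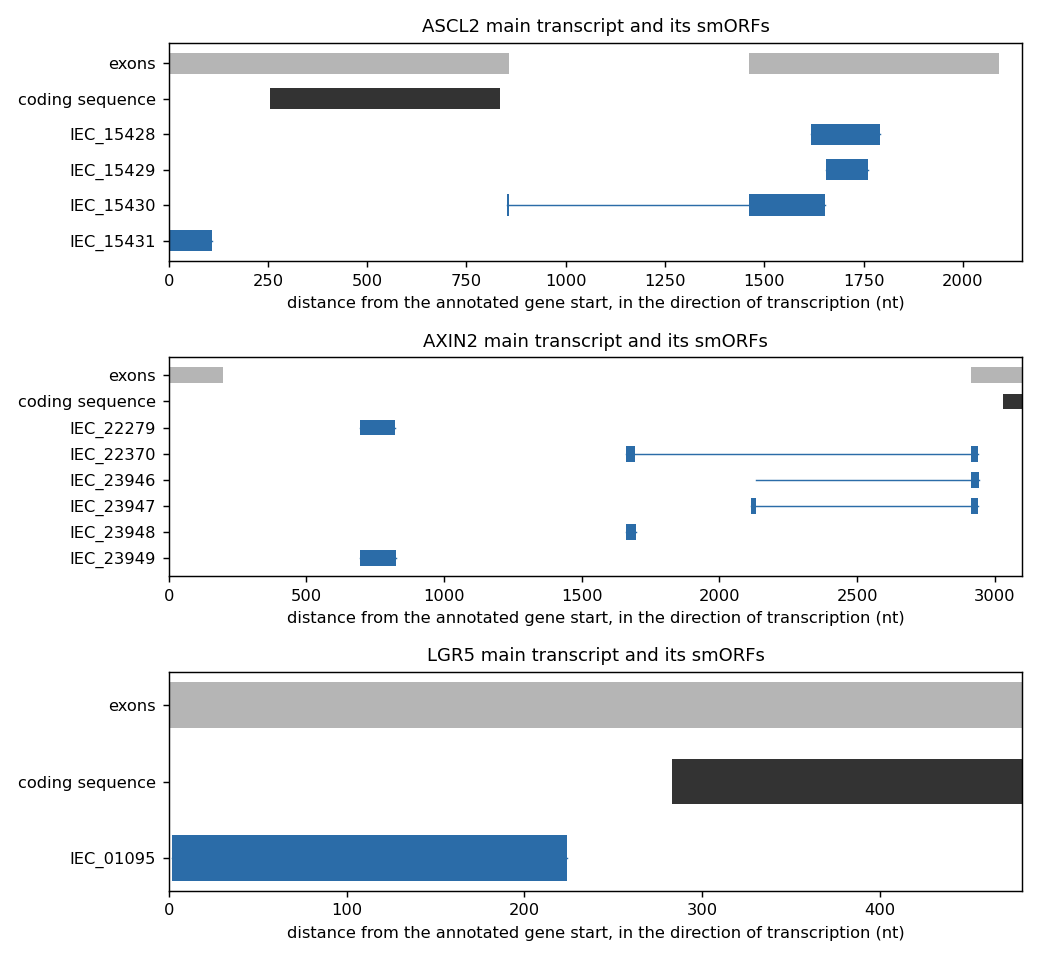
Position of the 11 smORFs (blue, thin lines for introns) beside the exons (grey) and coding sequence (black) of the main transcript of ASCL2, AXIN2 and LGR5, in nucleotides from the annotated gene start along the direction of transcription. The AXIN2 and LGR5 panels show only the start of each gene, and the 3 overlapping ASCL2 dORFs lie after the coding sequence whereas all other members lie before it.

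The members spanned the catalogue in calling score, and 1 stood apart in its highest conservation score. RibORF scores combine footprint coverage with how far the footprints follow the 3-base step of translation. Each smORF has 1 score, labelled a maximum and given for the pooled catalogue, not per library. Which libraries it came from is not stated. The scores ran from 0.777 for LGR5 IEC_01095 to 1.037 for ASCL2 IEC_15430, against a median of 0.876 over all smORFs. AXIN2 IEC_23946 scored 0.984 although it held 1 count in the 8 libraries here. The highest PhyloCSF score, a measure of protein-like evolution that is positive where codons change as coding sequence does, was above 0 for 12.9% of all smORFs and for 1 member. That member was LGR5 IEC_01095, at 6.498, the 98.9th percentile, whereas the 4 ASCL2 smORFs reached -4.27 to -0.351. The mean PhyloCSF score of IEC_01095 was below 0, at -1.579, so the high value did not hold over the whole smORF. With 3 dORFs and 8 uORFs among the 11 members, and 6.60% dORFs and 69.9% uORFs in the whole catalogue, the ASCL2 cluster supplied all dORFs of these genes.

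Depth set what could be measured. The libraries held 506382 to 884711 counts over all smORFs. A count of 0 has an upper limit of about 3 counts (1-sided, 95%). These 3 counts stood for 3.37 to 5.66 CPM, counts scaled to library size. These limits and the counting intervals given here cover counting error only. The median smORF collected 82 counts over the 8 libraries, and the members collected 1 to 186. As a check of the labels, 23 of 26 tested smORFs of enterocyte genes were called higher and 24 of 25 of proliferation genes lower in differentiated control cells, although VIL1, SI, ALPI and other enterocyte genes had no smORF listed. By gene, 8 of 10 enterocyte genes had a smORF called higher and 7 of 8 proliferation genes had one called lower. The enterocyte gene APOA1 went the other way, with IEC_17174 called lower (log2 fold change -1.43, adjusted p = 0.00425 in edgeR). The summed level of the proliferation list was 2808 to 3194 CPM in the undifferentiated libraries and 172 to 236 CPM in the 6 differentiated ones. Other lists moved with differentiation too. The summed level of the goblet list, with smORFs in 3 of 9 genes and none in MUC2, was 2978 to 4351 against 1058 to 1322 CPM, although all 4 tested smORFs of ZG16 were called higher while the 3 lower calls were in REG4 and AGR2. That of the Paneth list, with 1 of 6 genes and none in LYZ or DEFA5, was 106 to 110 against 10.5 to 22.6 CPM, and that of the fibroblast list, with 7 of 10 genes and none in COL1A1 or VIM, 52.8 to 81.4 against 0 to 4.50 CPM. The immune list stayed at or below 1.89 CPM in every library, and the enteroendocrine list had no smORF. The part of these lists in the values below was not tested.

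Per length, the ASCL2 smORFs were the most heavily occupied members. The mean over the 8 libraries was 19.1 CPM per 100 nt for IEC_15428, 14.9 for IEC_15430, 11.4 for IEC_15429 and 8.44 for IEC_15431, at the 54.5th, 47.3rd, 40.2nd and 33.3rd percentiles of all smORFs. LGR5 IEC_01095 reached 1.18 CPM per 100 nt, the 10.7th percentile, and the AXIN2 smORFs 0.507 to 1.64, the 8.23rd to 12.4th percentile. Neighbours in the order of the ASCL2 levels share reads or differ by less than their range over libraries, whereas LGR5 and AXIN2 lay near the lowest levels of the catalogue.

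The first comparison asked how translation at these genes differed between undifferentiated and differentiated Caco-2 cells. The ASCL2 dORFs IEC_15428 and IEC_15430 were higher in differentiated cells, and the few reads of the LGR5 uORF and of 1 AXIN2 uORF cluster were concentrated in undifferentiated cells. Of the 3 members tested, 2 were called higher (IEC_15428 and IEC_15430), and none was called lower. A smORF was called when its adjusted p was under 0.05 and the size of its log2 fold change was 1 or more. Over all 15182 smORFs tested, 33.3% were called, 17.7% higher and 15.6% lower. Since the libraries hold bulk cells, more cells that use a gene and more footprints per cell cannot be told apart, and without RNA libraries in these files a change in transcript amount and one in translation cannot be told apart either.

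For IEC_15428, the ASCL2 dORF with the most counts, 7 and 10 footprint counts were found in undifferentiated cells and 17 and 36 in control cells. Cells with micelles without lipid gave 26 and 30 counts, and cells with lipid micelles 26 and 34. In CPM this was 10.6 and 17.0 in undifferentiated cells, 32.1 and 45.2 in control cells, 45.6 and 40.1 with micelles without lipid, and 37.4 and 38.2 with lipid micelles. Both undifferentiated libraries lay below all 6 differentiated ones, with no overlap. The group means were 13.8 ± 4.58 CPM (SD, n = 2) in undifferentiated and 38.6 ± 9.28 CPM (SD, n = 2) in differentiated control cells, and the difference was called, with a log2 fold change of 1.50 ± 0.42 (SE), or 2.84-fold, and an adjusted p of 0.0104 by edgeR's quasi-likelihood test with Benjamini-Hochberg adjustment.

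IEC_15430, which opens just after the ASCL2 coding sequence, gave 8 and 7 counts in undifferentiated cells and 14 and 30 in control cells. It gave 18 and 29 counts with micelles without lipid and 19 and 41 with lipid micelles. Its level was 12.1 and 11.9 CPM in the undifferentiated libraries, 26.4 and 37.7 in the control, 31.5 and 38.7 with micelles without lipid and 27.3 and 46.1 with lipid micelles, again without overlap between undifferentiated and differentiated libraries. The means were 12.0 ± 0.103 CPM (SD, n = 2) and 32.0 ± 7.96 CPM (SD, n = 2), with a log2 fold change of 1.42 ± 0.46 (SE), or 2.68-fold, and an adjusted p of 0.0237 in edgeR.

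IEC_15429, nested inside IEC_15428, held 2 and 4 counts in undifferentiated cells and 7 and 8 in control cells. It held 12 and 11 counts with micelles without lipid and 12 and 9 with lipid micelles. Its undifferentiated levels of 3.02 and 6.81 CPM also lay below all 6 differentiated levels, of 10.0 to 21.0 CPM. The log2 fold change was 1.20 ± 0.72 (SE), with a 95% interval of -0.31 to 2.71 and an adjusted p of 0.199 in edgeR, so this dORF was not called.

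The ASCL2 uORF, IEC_15431, at the other end of the transcript, was too sparse to be tested. It held 2 and 4 counts in undifferentiated cells, 4 and 10 in control cells, 5 and 7 with micelles without lipid and 4 and 17 with lipid micelles. Its mean level was 4.91 ± 2.68 CPM (SD, n = 2) in undifferentiated and 10.1 ± 3.54 CPM (SD, n = 2) in control cells, and the groups overlapped, since 1 lipid micelle library stood at 5.75 CPM. Summing IEC_15428 and IEC_15431, the best covered smORF of each ASCL2 cluster, gave 9 and 14 counts against 21 and 46 in control cells. On that sum ASCL2 was the only member gene tested, and it was called higher, with a log2 fold change of 1.48 ± 0.38 (SE), or 2.80-fold, and an adjusted p of 0.00671 in edgeR, beside 34.8% of 4824 host genes called in either direction. Whether the uORF and the dORF IEC_15428 moved unequally could be asked only without the low-count filter, where edgeR's test within genes gave an adjusted p of 1 for both. The other ASCL2 dORFs, IEC_15430 and IEC_15429, were not part of that test. With so few uORF counts it cannot exclude an unequal change.

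**Figure D2:**
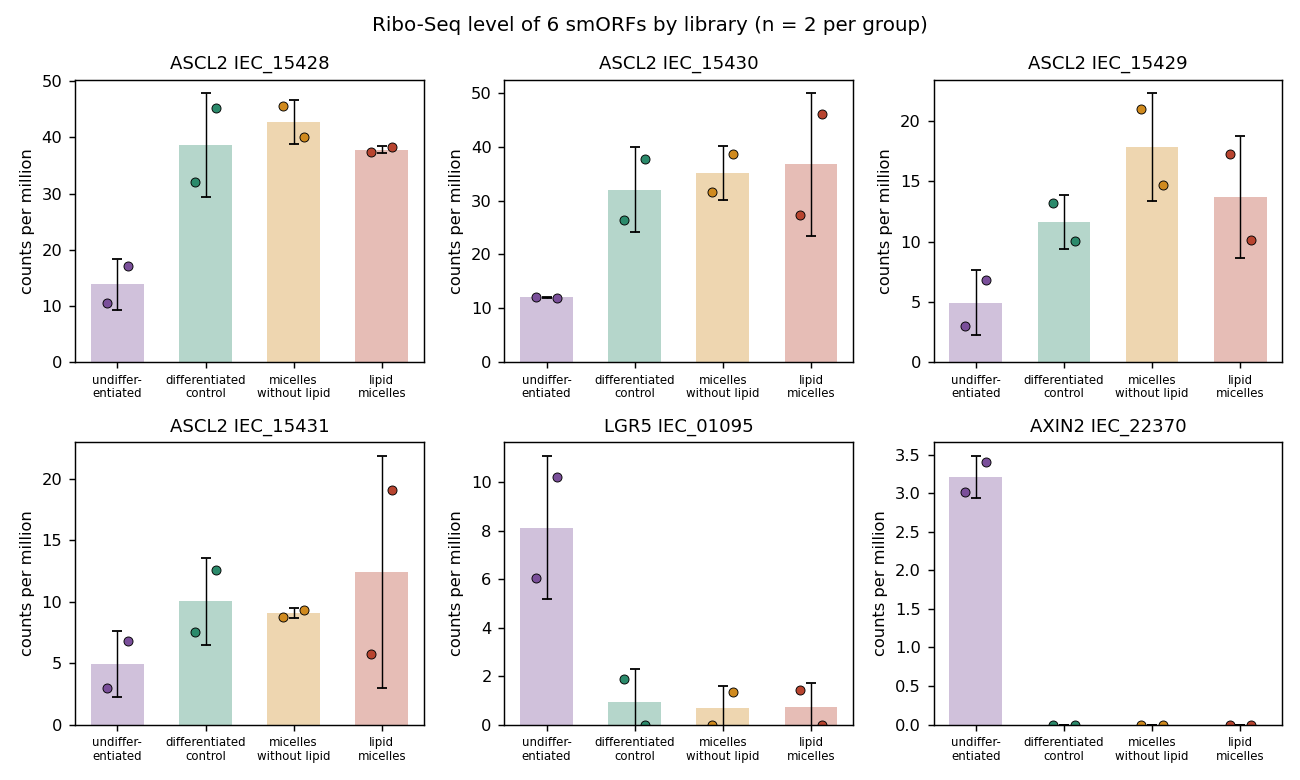
Level of the 4 ASCL2 smORFs, the LGR5 uORF and AXIN2 IEC_22370 in CPM in each of the 8 libraries (points), with the group mean (bars) and SD (error bars, n = 2); each panel has its own scale. The undifferentiated libraries lie below all differentiated libraries for the 3 ASCL2 dORFs and above them for LGR5 and AXIN2 IEC_22370, whereas ASCL2 IEC_15431 overlaps.

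The calls for ASCL2 rested on few counts. Without undifferentiated replicate 1, IEC_15428 stood at a log2 fold change of 1.19 (adjusted p = 0.103), IEC_15430 at 1.44 (adjusted p = 0.0994) and the ASCL2 sum at 1.12 (adjusted p = 0.0826) in edgeR. Without undifferentiated replicate 2, IEC_15430 stood at 1.43 (adjusted p = 0.0881) and IEC_15428 was still called. Without differentiated control replicate 2, the values were 1.25 (adjusted p = 0.108), 1.16 (adjusted p = 0.179) and 1.17 (adjusted p = 0.0912) in edgeR, so none was called. By the DESeq2 Wald test the ASCL2 sum was called (1.42, adjusted p = 0.0375), while IEC_15428 (1.48, adjusted p = 0.0587) and IEC_15430 (1.41, adjusted p = 0.102) were not. Averaging the 3 differentiated groups against undifferentiated cells, a contrast chosen after seeing the data, gave log2 fold changes of 1.52 ± 0.36 (SE) for IEC_15428, 1.52 ± 0.40 for IEC_15430 and 1.49 ± 0.60 for IEC_15429. All 3 were then called higher in edgeR (adjusted p = 0.00245, 0.00454 and 0.0490), beside 19.9% of all smORFs tested, as was the ASCL2 sum (1.50 ± 0.33, adjusted p = 0.00160), beside 38.3% of host genes called in either direction.

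Many dORFs were called higher in differentiated cells, ASCL2 IEC_15428 and IEC_15430 among them. Among 879 tested dORFs, the median log2 fold change between control and undifferentiated cells was 0.95, and 36.4% were called higher and 2.73% lower. For 11112 tested uORFs the median was -0.21, with 10.9% called higher and 18.8% lower. IEC_15428, IEC_15430 and IEC_15429 stood at or above 63.7%, 62.1% and 56.2% of the dORFs, inside the middle of their class. Higher counts at dORFs went with differentiation across the catalogue, and its part in the ASCL2 values was not tested.

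**Figure D3:**
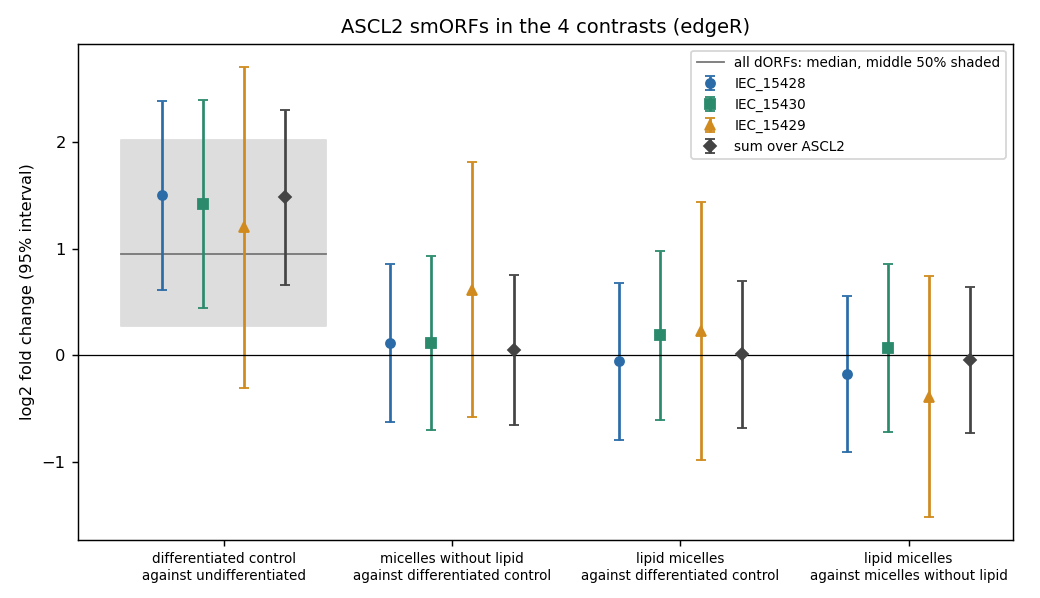
Log2 fold change with its 95% interval for the 3 tested ASCL2 dORFs and the ASCL2 sum in the 4 contrasts (edgeR), with the median (0.95) and middle 50% of all 879 dORFs in grey for the first contrast. The intervals of IEC_15428, IEC_15430 and the sum lie above 0 in the differentiation contrast, and all intervals include 0 in the 3 micelle contrasts.

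The few counts of the LGR5 uORF lay mostly in undifferentiated cells. IEC_01095 held 4 and 6 counts in undifferentiated cells, 1 and 0 in control cells, 0 and 1 with micelles without lipid and 1 and 0 with lipid micelles. Both undifferentiated libraries lay above all 6 differentiated ones, where no library held more than 1 count. The mean level was 8.12 ± 2.96 CPM (SD, n = 2) in undifferentiated cells and 0.943 ± 1.33 CPM (SD, n = 2) in control cells. With 10 counts against 1, the rate was 10.6 times that of control cells (95% exact interval 1.51 to 460), and with 10 against 3 it was 11.3 times that of the 6 differentiated libraries together (95% exact interval 2.90 to 63.8). These intervals cover counting error only and leave out variation between libraries and between cultures. Over smORFs with at least 10 counts in a group, replicates differed by more than counting error (chi-square per degree of freedom 2.51 to 3.25). Pooling the 6 differentiated libraries was not among the planned contrasts. The smORF did not reach the low-count filter, and without the filter its adjusted p was 0.0976 in edgeR. Of all smORFs, 15.5% had no more counts than its total of 13.

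The AXIN2 uORFs were at the edge of detection. IEC_22279 and IEC_23949, which share nearly all of their bases and reads, held 0 and 1 counts in undifferentiated cells, 1 and 1 in control cells, 0 and 1 with micelles without lipid and 0 and 1 with lipid micelles. This pair showed no separation between the groups. IEC_22370, named after its values were seen, held 2 and 2 counts in undifferentiated cells and 0 in all 6 differentiated libraries, and IEC_23948, which shares 35 nt with it, held 2 and 1 and then 0. IEC_23946 and IEC_23947 held 1 count each, in undifferentiated replicate 2. No fold change is given for IEC_22370, since it rests on 4 counts. Without the low-count filter, the adjusted p of the 6 AXIN2 uORFs was 0.228 to 0.829 in edgeR.

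Read over all members, 3 had both undifferentiated libraries below the 6 differentiated ones, all of them ASCL2 dORFs, and 3 had both above, namely LGR5 IEC_01095 and AXIN2 IEC_22370 and IEC_23948. Over the whole catalogue, 19.5% of smORFs lay entirely below and 21.4% entirely above in this sense.

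The remaining comparisons asked whether micelles, with or without lipid, moved these smORFs in differentiated cells. None of the 3 tested members was called in any of these contrasts, and 0% of all smORFs and 0% of host genes were called in each of the 3. At an unadjusted p under 0.05, edgeR gave 619 smORFs (4.08%) when micelles without lipid were set against control. It gave 708 (4.66%) between lipid micelles and control, and 624 (4.11%) between the 2 kinds of micelle. Both micelle contrasts share the control libraries.

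The intervals bound what could have been missed at ASCL2. Between lipid micelles and control, the log2 difference was -0.06 for IEC_15428 (95% interval -0.79 to 0.68), 0.19 for IEC_15430 (-0.61 to 0.98) and 0.23 for IEC_15429 (-0.98 to 1.44). Between micelles without lipid and control it was 0.12 (-0.63 to 0.86), 0.11 (-0.70 to 0.93) and 0.62 (-0.58 to 1.81) for the same dORFs. Lipid micelles against micelles without lipid gave -0.17 (-0.90 to 0.56), 0.07 (-0.72 to 0.86) and -0.39 (-1.52 to 0.74). For IEC_15428 and IEC_15430 these intervals leave out a change of 2-fold or more in either direction, whereas those of IEC_15429 do not. Leaving out single libraries turned the sign of several of these small values. The LGR5 uORF gave 1 count in each of the 3 differentiated groups, so no order among them can be read.

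The profiles most like that of ASCL2 were found among the 4823 other host genes tested, as the smallest Euclidean distance between log2 CPM values centred over the 8 libraries. The nearest were OFCC1, with a smORF classed as non-coding, at a distance of 0.388, DSE, an enzyme of dermatan sulfate synthesis, with 4 smORFs summed, at 0.477, and SAT2, with a dORF, at 0.494. The median distance over all host genes was 2.14. The profiles rest on 158, 206 and 567 counts in all, and the likeness is a description only.

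The other genes of the pathway gave the setting of ASCL2, LGR5 and AXIN2. Across 5 lists of WNT and crypt genes, 173 smORFs were tested between control and undifferentiated cells, of which 19 were called higher and 22 lower. Their number, 41 in all, was 24 without undifferentiated replicate 2 and 26 without differentiated control replicate 2. The calls made up 23.7% of the smORFs tested in these lists, beside 33.3% of all smORFs. By list, the share called in either direction was 36.0% for ligands and receptors, 21.6% for signal transduction, 11.9% for nuclear effectors, 46.9% for feedback inhibitors and other targets and 10.9% for crypt stem cell genes. These shares count a gene once for each of its smORFs. By gene, ligands and receptors had higher calls in 2 and lower calls in 4 of 10 tested genes. For signal transduction this was 2 and 4 of 12, and for nuclear effectors 1 and 2 of 11. For feedback inhibitors and other targets it was 3 and 4 of 9, and for crypt stem cell genes 1 and 2 of 9. In none of the 3 micelle contrasts was a smORF of these lists called.

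Among ligands, secretion factors and receptors, smORFs of 10 of 30 genes were tested, and of 25 smORFs 4 were called higher and 5 lower, with a median log2 fold change of 0.17 against 0.01 over all smORFs. The uORF IEC_03802 of ROR1, a receptor for WNT5A, fell from 15 and 14 counts to 1 and 2, a rate in undifferentiated cells 10.3 times that in control cells (95% exact interval 3.18 to 52.6, counting error only). Another ROR1 uORF called lower, IEC_03804, had the same log2 fold change of -3.27, so these may not be separate measurements. The uORF IEC_15256 of WNT11, a ligand of non-canonical signalling, rose from 2 and 0 to 8 and 12 counts, a rate in control cells 9.43 times that in undifferentiated cells (95% exact interval 2.29 to 83.2). All 3 tested WNT11 uORFs were called higher, with log2 fold changes of 2.87 to 3.09, so these too may not be separate measurements. The uORF IEC_03286 of FZD6, a Frizzled receptor, fell from 18 and 24 to 4 and 6 counts.

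In signal transduction, which holds the destruction complex to which AXIN2 belongs, 37 smORFs of 12 genes were tested, with 3 called higher, 5 lower and a median of 0.33. The uORF IEC_13855 of FBXW11, an F-box protein that marks beta-catenin for degradation, fell from 71 and 102 to 5 and 8 counts (log2 fold change -3.82 ± 0.43, SE; adjusted p = 3.49e-06 in edgeR). The uORF IEC_13196 of PPP2CA, the catalytic subunit of protein phosphatase 2A, fell from 325 and 341 to 72 and 167 counts, and the uORF IEC_02941 of the casein kinase CSNK1G3 rose from 8 and 6 to 16 and 46. Among nuclear effectors, 42 smORFs of 11 genes were tested, with 1 called higher, 4 lower and a median of 0.00. The uORF IEC_21705 of CHD8, a chromatin remodeller that binds beta-catenin, fell from 11 and 17 to 1 and 5 counts. Of the 4 tested CHD8 smORFs 3 were called lower and 1 higher, IEC_21807 (log2 fold change 1.44, adjusted p = 0.0470 in edgeR), which was named after its values were seen and was the single higher call of the list. Among the lower calls, IEC_21705 and IEC_21706 had the same log2 fold change of -2.30, so they may not be separate measurements. The uORF IEC_21230 of the co-repressor CTBP2 fell from 16 and 17 to 2 and 7. All 6 tested smORFs of CTNNB1, which encodes beta-catenin, had log2 fold changes of 0.27 to 0.75, and none was called.

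The widest spread was in the list of feedback inhibitors and other WNT targets, the class to which AXIN2 also belongs. Of 32 smORFs of 9 genes tested, 9 were called higher and 6 lower, with a median of 0.32. DKK1 encodes a secreted inhibitor that blocks LRP receptors, and its uORF IEC_04016 fell from 1252 and 1230 counts to 8 and 21. Its log2 fold change of -6.53 ± 0.34 (SE) had the smallest adjusted p of all smORFs tested, 3.16e-09 in edgeR. The dORF IEC_00392 of ID2, an inhibitor of helix-loop-helix factors, rose from 1 and 4 to 16 and 35 counts, and the uORF IEC_16914 of JUN, a subunit of the AP-1 transcription factor, rose from 5 and 1 to 16 and 40. JUN had 6 of 7 tested smORFs called higher, and smORFs of 1 gene can share reads.

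Of the other crypt stem cell and progenitor genes, the class of LGR5 and ASCL2, 46 smORFs of 9 genes were tested, with 2 called higher, 3 lower and a median of -0.42. The uORF IEC_09551 of TGIF1, a transcriptional co-repressor, fell from 18 and 11 to 1 and 4 counts, and the uORF IEC_22261 of RNF43, a ligase that removes Frizzled receptors from the membrane and stands in both of the last 2 lists, fell from 33 and 49 to 16 and 26. The uORF IEC_19337 of PROM1, which encodes the surface protein CD133, rose from 10 and 6 to 16 and 38. Of 10 tested PROM1 smORFs 2 were called higher, and the others ranged down to a log2 fold change of -0.72. TGIF1 had 2 of 7 and RNF43 1 of 9 tested smORFs called, all lower. No test of these lists against other smORFs was made.

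**Figure D4:**
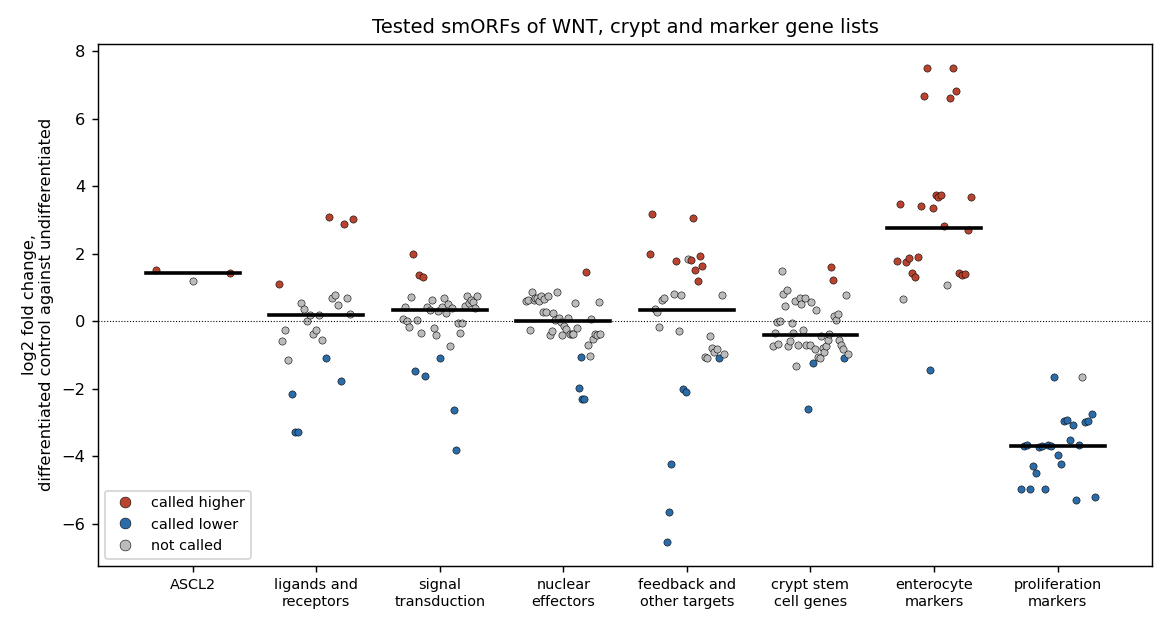
Log2 fold change between differentiated control and undifferentiated cells (edgeR) for each tested smORF of ASCL2, of the 5 other WNT and crypt lists and of the enterocyte and proliferation markers; red and blue points were called higher and lower, grey points were not called, and black bars are medians. WNT and crypt lists hold calls in both directions around medians of -0.42 to 0.33, whereas enterocyte markers lie mostly above 0 and proliferation markers below it.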

How the data were processed

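Ribo-Seq libraries of 8 Caco-2 samples were analysed from the table of raw counts per smORF that the authors deposited. In the submitters' notes the build is hg38 and the tools are STAR 2.7.11a and HOMER. Per the methods of the study, smORFs were called by RibORF on a transcriptome assembled from RNA-seq, and HOMER then counted reads over each. Strand and multimapping settings are not given in the sources used here. The deposited annotation added RibORF and PhyloCSF scores and the smORF sequences, and no per-library column was left unused (0). Of 24201 annotation rows, 24199 matched the count table. Gene models were from GENCODE on the same build, and the genome sequence equalled the deposited sequence for 10 of 11 members. The exons of IEC_23946 did not give its deposited sequence, so its position is uncertain.

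All smORFs that passed filterByExpr (15182) were fitted over all 8 libraries in edgeR 4.0.16 (R 4.3.3) with TMM scaling, glmQLFit and glmQLFTest, and adjusted by Benjamini-Hochberg over all of them. Thresholds for a call were 0.05 for the adjusted p and 1 for the size of the log2 fold change. Fits per host gene (4824) used counts summed over the best covered smORF of each overlap cluster (11522 clusters). CPM used TMM-scaled library sizes. Alternatives were DESeq2 1.42.0, other scaling, other filters, 1 smORF per cluster, a replicate block and leaving out each library. Scripts were tested on simulated data, and figures used matplotlib 3.10.9. Same-numbered libraries deviated together among the 3 differentiated groups (r over smORFs of 0.109 to 0.198) but not between these and undifferentiated cells (-0.065 to 0.021). Replicates correlated at 0.883 to 0.920 in log2 CPM.

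The member genes and the gene lists were chosen with earlier results of these data known. Named genes were the best covered and the called smORFs of each member gene, the called smORFs of the 3 host genes with the largest changes in each other list, and the 3 host genes nearest in profile. Where several smORFs of such a host gene were called, the one with the largest change was named.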

Additional observations from a re-analysis of the deposited data

How the results depend on the processing

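The count of member smORFs called between control and undifferentiated cells was 2 in the reported fit, 1 with 1 smORF per overlap cluster, which keeps a single ASCL2 dORF (IEC_15428), 0 with at least 10 counts in every library, where no member was left to test, and 0 by DESeq2. Leaving out single libraries gave 0 to 2 called member smORFs, 0 to 1 called member genes on summed counts, and 24 to 45 called smORFs of the other WNT and crypt lists, against 41 in the reported fit. Under the replicate block, fitted on the 4 libraries of these 2 groups, where IEC_15429 did not reach the low-count filter, 2 member smORFs were called, with log2 fold changes of 1.54 for IEC_15428 (adjusted p = 0.0102, edgeR) and 1.46 for IEC_15430 (adjusted p = 0.0205). The block changed no other call of a member, and 38 list smORFs were called. Of the values in the micelle contrasts, in which nothing was called, several changed sign when a library was left out. IEC_15429 between micelles without lipid and control, and IEC_15428 and IEC_15429 between lipid micelles and micelles without lipid, did not. For micelles without lipid against control, the log2 differences ran from -0.095 to 0.40 (IEC_15428), -0.10 to 0.41 (IEC_15430) and -0.16 to 0.37 (ASCL2 sum), each lowest without control replicate 1, with further negative values of -0.056 (IEC_15430, without micelles without lipid replicate 2) and -0.030 (ASCL2 sum, without its replicate 1). For lipid micelles against control they ran from -0.26 to 0.23 (IEC_15428), -0.17 to 0.58 (IEC_15429), -0.26 to 0.50 (IEC_15430) and -0.21 to 0.33 (ASCL2 sum), and without control replicate 1 were -0.026 (IEC_15430) and -0.20 (ASCL2 sum). For lipid micelles against micelles without lipid they ran from -0.37 to 0.39 (IEC_15430) and -0.26 to 0.13 (ASCL2 sum), and without replicate 1 of micelles without lipid were -0.054 (IEC_15430) and 0.035 (ASCL2 sum). The cause was not tested. Counts of 13 or fewer in all libraries together left LGR5 and AXIN2 below the low-count filter.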
